A study of Mus musculus with 20 samples.

Results

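Dermis of healed skin wounds that overexpressed Sonic hedgehog (Shh) was set against dermis of embryonic skin of stage E14.5. The comparison took all 3 Shh wound dermal libraries and all 4 E14.5 dermal libraries, which are 7 of the 20 samples of the series, and every gene in the deposited table with at least 1 read among them, which was 19734 of 19807 genes. The Shh wounds came from 4-5 week old mice of mixed strain and genotype K14-CreER; LSL-Shh, in which tamoxifen activates Cre in keratin 14-positive basal epidermis, Cre excision lets a ubiquitous promoter drive Shh, and dermal cells receive the ligand from outside. The tissue was taken 2 days after the scab had come off. The E14.5 skin came from wild type embryos, also of mixed strain, and was not wounded. WT wounds, from wild type mice of the same strain label, age and stage, which per the study's methods were also given tamoxifen, gave another 3 dermal libraries, and their values are given beside the others as context. The Shh wound and E14.5 libraries also serve in other comparisons of the series. Age, wounding, tamoxifen (none is stated for the embryos) and genotype all differ between Shh wounds and E14.5 skin, so these effects cannot be told apart here, and no unwounded skin of 4-5 weeks was analysed. Nothing in the labels says whether a library held tissue of 1 animal or of several, so p-values measure the spread between these libraries.

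In embryonic skin, epidermal placodes secrete Shh, and fibroblasts below them answer through the receptor Patched1 and the GLI transcription factors as they gather into dermal condensates, the precursors of the hair follicle's dermal papilla. Dermal fibroblasts of the embryo divide and lay down a loose matrix rich in hyaluronan, whereas fibroblasts of a postnatal wound deposit dense fibrillar collagen, which persists as scar. Values below are CPM, a gene's reads per 1000000 reads of its library. Library values follow the order Shh-9101, Shh-9231 and Shh-9233 for Shh wounds, E-3, E-4, E-5 and E-7 for E14.5 skin, and WT-9097, WT-9098 and WT-9229 for WT wounds.

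The Shh wound libraries held 3920969 to 8002999 reads and 12044 to 18734 detected genes, the E14.5 libraries 16160420 to 18745431 reads and 18849 to 19419 genes. The WT wound libraries held 1407498 to 3752046 reads and 11895 to 17521 genes. Both lowest values were those of WT-9229, where 1 read was 0.710 CPM. Library Shh-9233 stood apart: 6159 genes had 0 reads in it and reads in both other Shh wound libraries, and its log2 profile correlated with theirs at Pearson r = 0.839 and 0.873 across 16144 genes (genes are not independent replicates), against r = 0.963 between those 2 and 0.970 to 0.987 among E14.5 pairs. The 10 most read genes took 30.5 to 43.3% of the reads in Shh wound dermis and 11.4 to 13.5% in E14.5 dermis. CPM sums to the same total in every library, and the median log2 fold change over all genes tested was -0.61 on the CPM scale and -0.18 after trimmed mean of M values (TMM) scaling, a median shift of 0.55 per gene. Lists and genes are therefore read against that median, and the TMM value stands beside the CPM value of each list. The fibroblast markers Pdgfra, Col1a1, Dcn, Lum and Twist2 were detected in all 7 libraries. Leaving out Col1a1, which a result below concerns, the other 4 together gave 2614, 3293 and 2415 CPM in Shh wound dermis, against 3574, 3173, 4171 and 2569.7 CPM in E14.5 dermis, in overlapping ranges.

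At an adjusted p under 0.05 (limma on log2(CPM + 1), two-sided, Benjamini-Hochberg over all genes), 9987 genes differed, or 50.6% of those tested. Of these, 1594 were higher in Shh wound dermis (8.08% of genes tested) and 8393 were lower (42.5%). TMM scaling gave 2984 higher (15.1%) and 4680 lower (23.7%), so the share of higher genes among the calls was 16.0% on the CPM scale and 38.9% with TMM, and it was 47.8% with edgeR and 43.7% with DESeq2. Of the 1594 rises, 1586 were also called higher with TMM scaling, and 4680 of the 8393 falls were also called lower. All 3 Shh wound libraries lay above all 4 E14.5 libraries for 1814 genes (9.19%) and below them for 9413 genes (47.7%). Without library Shh-9233, 58.8% of genes tested were called, 13.5% higher and 45.2% lower. Of the 8393 falls, 2377 were genes with 0 reads in Shh-9233 and reads in both other Shh wound libraries. List counts below are to be read against 8.08% of genes higher and 42.5% lower, or 15.1% and 23.7% with TMM.

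**Figure D1:**
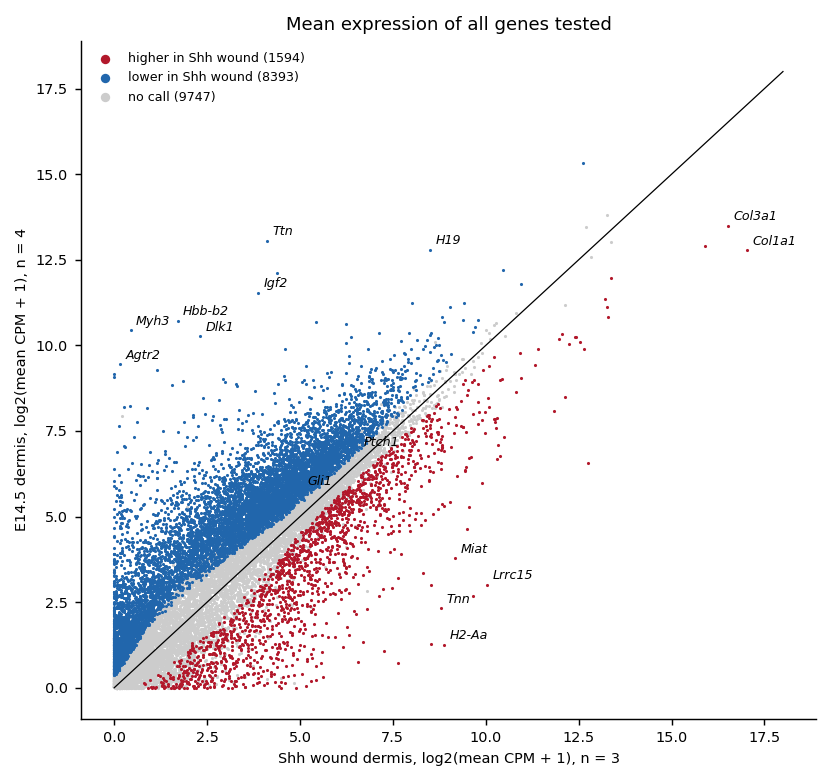
Mean expression of all 19734 genes tested, with log2(mean CPM + 1) in Shh wound dermis (n = 3) on the x axis and in E14.5 dermis (n = 4) on the y axis; the line marks equal values. The 1594 genes called higher in Shh wounds (red) include Col1a1 and Col3a1 at the far right, the 8393 called lower (blue) include H19, Igf2 and Myh3, and Ptch1 and Gli1 lie near the line among genes with no call (grey).

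**Figure D2:**
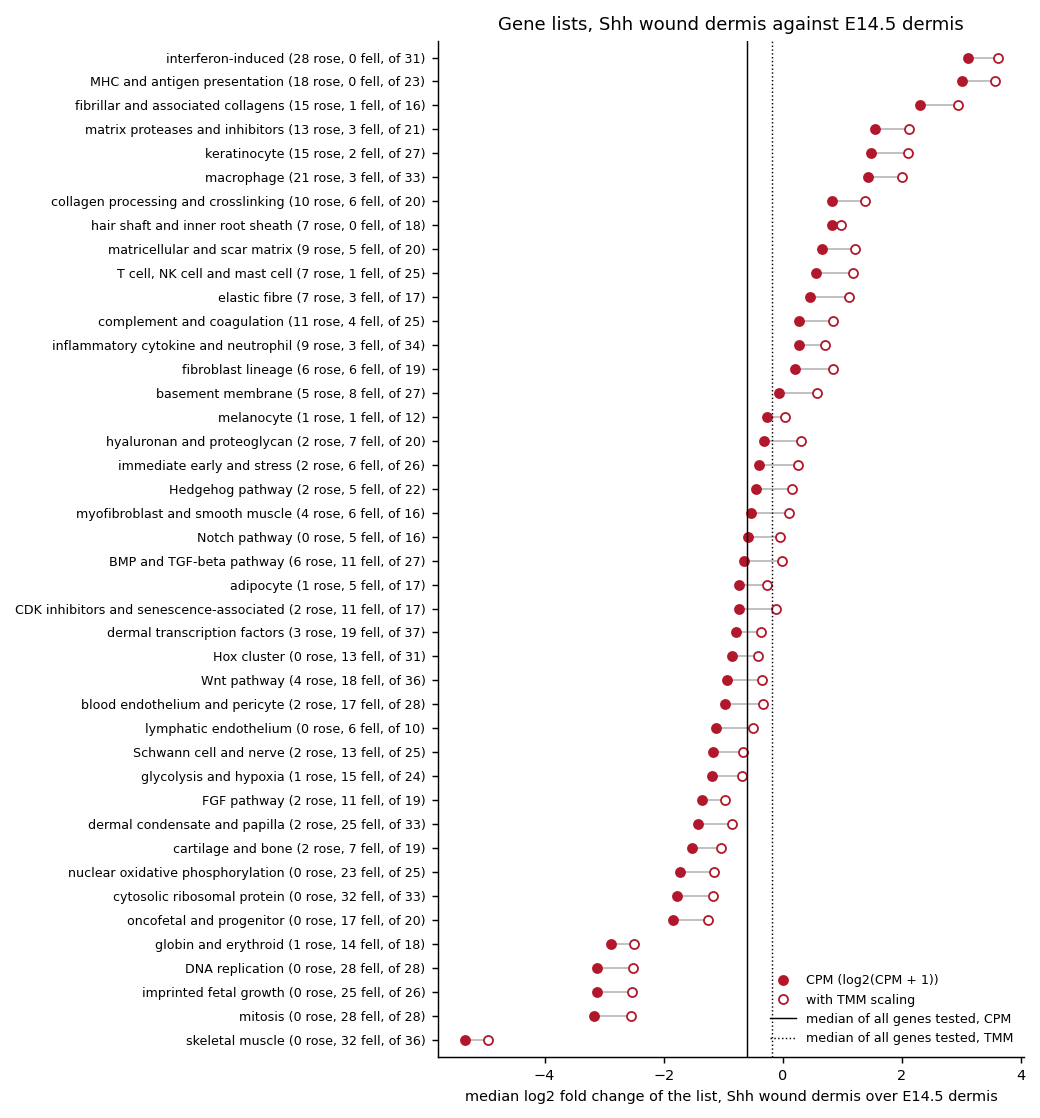
Median log2 fold change of Shh wound dermis over E14.5 dermis (x axis) for each of 42 gene lists (rows, with the number of members tested and called), on the CPM scale and with TMM scaling; vertical lines mark the medians of all genes tested, -0.61 and -0.18. Interferon-induced (3.11), MHC (3.01) and collagen (2.30) lists lie at the high end, and skeletal muscle (-5.34), mitosis (-3.17) and DNA replication (-3.12) lists at the low end.

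In the Hedgehog pathway, which the transgene feeds, the receptor gene Ptch1 lay inside the E14.5 range on the CPM scale. Shh itself had 5.24, 1.25 and 5.61 CPM in Shh wound dermis, against 0.32, 0.828, 0.0619 and 0.342 CPM in E14.5 dermis and 3.58, 0.533 and 0 CPM in WT wound dermis. Every Shh wound library exceeded every E14.5 library, and the gene rose (log2 fold change 1.73 ± 0.41 (SE), adjusted p = 0.00876). In the matching epidermis, where the transgene is driven, Shh had 9.25, 7.35 and 10.7 CPM in Shh wounds, against 5.43, 4.42, 6.61 and 7.76 CPM in E14.5 skin, where placodes make it. Keratinocyte markers were also higher in Shh wound dermis, as given further on, and what epidermal RNA adds to dermal Shh was not tested. The ligand gene Dhh, which Schwann cells express, averaged 4.4 ± 1.44 CPM in Shh wounds and 5.29 ± 1.58 CPM in E14.5 skin (SD, n = 3 and 4), with no call (limma adjusted p = 0.641).

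Ptch1 encodes the Hedgehog receptor and is itself switched on by the pathway, so that its level is the usual readout of Hedgehog reception. It had 85.5, 105 and 92.1 CPM in Shh wound dermis, against 106, 165, 134 and 74 CPM in E14.5 dermis, and 35, 42.9 and 18.5 CPM in WT wound dermis. On the CPM scale the Shh wound libraries fell inside the E14.5 range, and every WT wound library lay below all 7. Library ranges were not compared with TMM scaling. The log2 fold change of Shh wounds over E14.5 was -0.28 (95% interval -0.87 to 0.30, adjusted p = 0.379), and it was 0.36 with TMM scaling (adjusted p = 0.269), so a difference was not detected on either scale and its sign depended on the scale. Gli1, a transcription factor that is both effector and target, had 29.7, 32.2 and 34.9 CPM in Shh wounds, against 44.9, 77.4, 56.3 and 35.1 CPM in E14.5 and 17.9, 14.4 and 5.68 CPM in WT wounds. The Shh wound values lay just below the lowest E14.5 value, with no call (log2 fold change -0.65 ± 0.26 (SE), adjusted p = 0.0633, and -0.02 with TMM). Gli2, the main activator among the GLI factors, had 41.9, 32.9 and 67.3 CPM in Shh wounds, against 71.4, 101, 80.9 and 50.6 CPM in E14.5 and 16.4, 17.9 and 12.8 CPM in WT wounds, with overlap and no call (log2 fold change -0.69 ± 0.29 (SE), adjusted p = 0.0816). Without library Shh-9233, Gli1 and Gli2 passed as lower in Shh wounds on the CPM scale (log2 fold changes -0.71 and -0.97, limma adjusted p = 0.0486 and 0.0086). In that fit 45.2% of all genes were called lower. With TMM scaling and all 7 libraries, the log2 fold change of Gli2 was -0.05 (limma adjusted p = 0.911).

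Members that passed included a binding inhibitor, a signal transducer and a ligand carrier. Hhip, a membrane protein that captures Hedgehog ligands and is another target of the pathway, had 2.13, 2.25 and 0 CPM in Shh wound dermis, against 14.9, 26.3, 19.7 and 10.6 CPM in E14.5 dermis and 5.36, 3.46 and 2.13 CPM in WT wounds. Shh wounds lay below every E14.5 library, and the gene fell (log2 fold change -3.05 ± 0.52 (SE), adjusted p = 0.00168; -2.65 with TMM). Smo, the transducer that Patched holds in check, was lower in Shh wounds (81.1 ± 18.4 against 143 ± 14.9 CPM in E14.5, SD), but the call was lost with TMM scaling (log2 fold changes -0.83 and -0.19, adjusted p = 0.00458 and 0.477). Sufu, the inhibitor that holds GLI factors in the cytoplasm, was called lower on the CPM scale only and its sign turned with TMM (log2 fold changes -0.50 and 0.14, adjusted p = 0.0436 and 0.475). Scube2, which helps to release the lipid-bound ligand, fell by 1.62 on the log2 scale (adjusted p = 0.00352). Osr2, a mesenchymal transcription factor, rose with 106, 173 and 119 CPM in Shh wounds, against 21.6, 17.2, 22.3 and 27.2 CPM in E14.5 (log2 fold change 2.52 ± 0.22 (SE), adjusted p = 8.42e-05), and its 144, 145 and 87.4 CPM in WT wounds lay in the same range as in Shh wounds. Over the whole Hedgehog list 2 of 22 rose and 5 fell (median log2 fold change -0.46). The 22.7% that fell was below the 42.5% of all genes, and the median of all genes was -0.61. TMM scaling gave 3 rises and 2 falls (median 0.16), so the sign of the median changed with the scale. The count of falls rested on single libraries: 2 rose and 9 fell without Shh-9233 (58.8% of all genes were then called, 45.2% lower), and 2 rose and 8 fell without E-7.

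**Figure D3:**
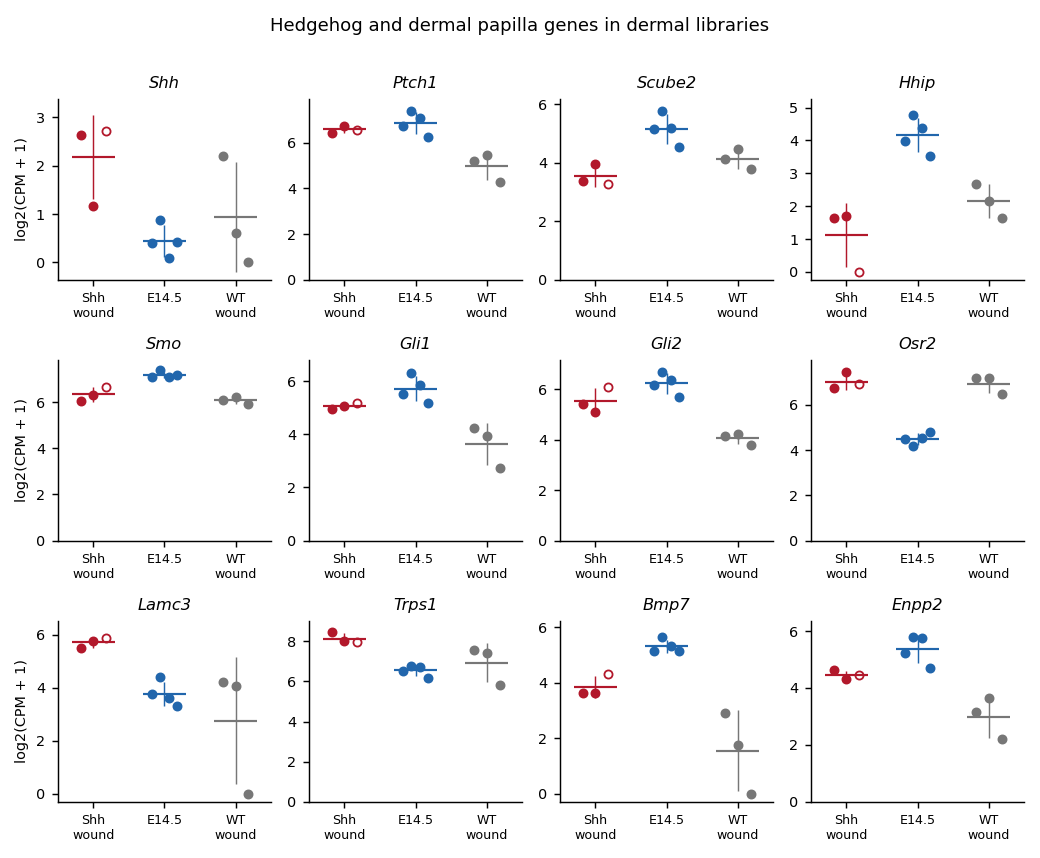
Hedgehog and dermal papilla genes in each dermal library, as log2(CPM + 1) on the y axis, with Shh wounds left (red, n = 3; the open point is Shh-9233), E14.5 in the middle (blue, n = 4) and WT wounds right (grey, n = 3); horizontal bars are means and vertical bars 1 SD. Ptch1 in Shh wounds (85.5 to 105 CPM) lies within the E14.5 range (74.0 to 165 CPM) and above WT wounds (18.5 to 42.9 CPM), whereas Hhip is low in both wound groups and Lamc3 and Trps1 are highest in Shh wounds.

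The genes that the study follows as marks of the dermal condensate and papilla split. Lamc3, a laminin chain enriched in papilla, had 44.2, 53.2 and 58.4 CPM in Shh wound dermis, against 12.7, 20.1, 11.3 and 8.83 CPM in E14.5 dermis and 17.5, 15.7 and 0 CPM in WT wounds. Trps1, a transcriptional repressor expressed in papilla and follicle mesenchyme, had 352, 255 and 248 CPM in Shh wounds, against 92.4, 107, 106 and 70.7 CPM in E14.5 and 187, 172 and 56.1 CPM in WT wounds. Both rose clear of the E14.5 range (log2 fold changes 1.94 ± 0.28 (SE), adjusted p = 0.000754, and 1.59 ± 0.19 (SE), adjusted p = 0.000368), and for both the Shh wounds also exceeded all WT wounds. Bmp7, a bone morphogenetic protein of the condensate, had 11.3, 11.2 and 18.9 CPM in Shh wounds, against 34, 49.1, 39.4 and 34.2 CPM in E14.5 and 6.44, 2.4 and 0 CPM in WT wounds. Lamc3 and Bmp7 had 0 CPM in WT-9229, the dermal library with the fewest reads. Bmp7 stood between the other groups, above every WT wound and below every E14.5 library (log2 fold change -1.46 ± 0.24 (SE), adjusted p = 0.00161). Enpp2, which encodes the lysophosphatidic acid-producing enzyme autotaxin, showed the same order, with 23.6, 19.1 and 20.7 CPM in Shh wounds, against 36.1, 54.3, 52.5 and 25.3 CPM in E14.5 and 7.87, 11.5 and 3.55 CPM in WT wounds. Its fall was called on the CPM scale (log2 fold change -0.90 ± 0.28 (SE), adjusted p = 0.0262) and not with TMM scaling (-0.28, adjusted p = 0.417). Fgf9 is not among those papilla genes, and the study names it for its part in follicle neogenesis of large wounds. It was near background in both wound groups, with 0.328, 0.25 and 0 CPM in Shh wounds, against 4.16, 2.7, 4.7 and 3.7 CPM in E14.5, and fell (log2 fold change -2.01 ± 0.27 (SE), adjusted p = 0.000584).

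Most other condensate and papilla genes were lower in Shh wounds. Of the list 2 of 33 rose and 25 fell (median log2 fold change -1.42). After TMM scaling 3 rose and 15 fell (median -0.84), where 42.5% and 23.7% of all genes fell on these scales. Dkk1, a secreted Wnt inhibitor of the embryonic dermis, had 0.164, 0.25 and 0 CPM in Shh wounds, against 35.5, 31.7, 40.6 and 23.2 CPM in E14.5, and 0 in all 3 WT wounds. Only 3 reads came from the Shh wounds together and 2304 from the E14.5 libraries, a 196-fold lower level with a 95% counting interval of 67.0 to 952. Sox2, a transcription factor that marks early condensates, averaged 1 ± 1.07 CPM in Shh wounds and 11.8 ± 4.07 CPM in E14.5, and fell (log2 fold change -2.76 ± 0.48 (SE), adjusted p = 0.00201). Tbx18, another condensate transcription factor, had 10.3, 14 and 8.42 CPM in Shh wounds, against 102, 98.1, 98.5 and 68 CPM in E14.5 (log2 fold change -2.97 ± 0.22 (SE), adjusted p = 4.64e-05). Fgf10, a mesenchymal growth factor, averaged 1.26 ± 1.41 CPM in Shh wounds and 33.6 ± 6.72 CPM in E14.5. Nog, which blocks BMPs and so permits placodes, averaged 0.645 ± 0.656 CPM in Shh wounds and 9.75 ± 2.31 CPM in E14.5. Hey1, a Notch target used as a condensate marker, averaged 5.66 ± 2.09 CPM in Shh wounds and 49.3 ± 10.7 CPM in E14.5. Of Dkk1, Sox2, Tbx18, Fgf10, Nog and Hey1, none reached its lowest E14.5 value in any Shh wound library, and all 6 falls held with TMM scaling.

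Fibrillar collagen genes were much higher in Shh wound dermis. The 16 listed fibrillar and associated collagens took 26.7, 33.4 and 40.4% of all reads in Shh wound dermis, against 3.58, 3.83, 3.55 and 3.55% in E14.5 dermis and 28.7, 35 and 30.2% in WT wounds. Col1a1, the alpha1 chain of type I collagen, had 96819, 126818 and 180396 CPM in Shh wounds, against 6737, 7676, 6776 and 7102 CPM in E14.5 and 117719, 130347 and 134218 CPM in WT wounds. Each Shh wound library was more than 10 times any E14.5 library and the WT wounds lay within the Shh wound range (log2 fold change 4.21 ± 0.48 (SE), adjusted p = 0.000267). Its partner chain Col1a2 had 52690.4, 60916 and 70704 CPM in Shh wounds, against 7520.0, 8206, 7249 and 7843 CPM in E14.5 (log2 fold change 2.99 ± 0.40 (SE), adjusted p = 0.00059). Col3a1, type III collagen of thin and early fibres, had 78913, 97466 and 105873 CPM in Shh wounds, against 11702, 11482, 11997 and 10895 CPM in E14.5 (log2 fold change 3.02 ± 0.49 (SE), adjusted p = 0.00132). Of the list 15 of 16 rose and 1 fell (median log2 fold change 2.30). On the TMM scale 15 rose and 0 fell (median 2.95). Col7a1, the collagen of the anchoring fibrils that tie epidermis to dermis, had 3251, 3704 and 4033 CPM in Shh wounds, against 231, 427, 277 and 145 CPM in E14.5 (log2 fold change 3.86 ± 0.32 (SE), adjusted p = 7e-05), and keratinocytes, whose markers were also higher, make it too. In the matching epidermis Col7a1 had 521, 947 and 762 CPM in Shh wounds, and 157, 136, 135 and 142 CPM in E14.5. These values lay below those of the dermis in every library, and what epidermal RNA adds to dermal Col7a1 was not tested. Col12a1, a fibril-associated collagen, rose by 2.76 and Col5a1, a regulator of fibril width, by 2.43 on the log2 scale. The fall was Col11a1, a fibrillar collagen of cartilage, with 20, 13.9 and 9.69 CPM in Shh wounds, against 34, 198, 23 and 79.5 CPM in E14.5, highest in the library with cartilage transcripts, E-4, and the call was lost with TMM scaling (adjusted p = 0.116).

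The genes that handle collagen were divided. Of the processing and crosslinking list 10 of 20 rose and 6 fell (median log2 fold change 0.83). Under TMM scaling 13 rose and 3 fell (median 1.39). Adamts2 and Bmp1, the proteinases that trim the ends of procollagen, averaged 1013 ± 163 and 703 ± 146 CPM in Shh wounds, and 174 ± 24.8 and 176 ± 22.3 CPM in E14.5 (SD). Both rose (log2 fold changes 2.54 ± 0.17 (SE), adjusted p = 3.01e-05, and 1.98 ± 0.18 (SE), adjusted p = 0.000103), as did the crosslinking oxidase Loxl2 (log2 fold change 1.44 ± 0.15 (SE), adjusted p = 0.000183). Serpinh1, the collagen chaperone of the endoplasmic reticulum, had 1309.9, 2199.7 and 2408 CPM in Shh wounds, against 3339, 3713, 3655 and 3439 CPM in E14.5. P4hb, a subunit of the prolyl hydroxylase that stabilises the triple helix, had 847, 859 and 703 CPM in Shh wounds, against 1317, 1292, 1425 and 1382 CPM in E14.5. Both were called lower on the CPM scale (log2 fold changes -0.89 and -0.76) and neither with TMM scaling (-0.24 and -0.11). Plod2, a lysyl hydroxylase, fell on both scales with 15.7, 14.1 and 11 CPM in Shh wounds, against 70.7, 63.4, 64.4 and 69.5 CPM in E14.5 (log2 fold changes -2.23 and -1.61 with TMM).

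Matricellular genes changed in both directions, and more protease genes rose than fell. Tnn (tenascin-W), a matricellular protein, had 347, 504 and 489.9 CPM in Shh wounds, against 4.16, 5.41, 3.71 and 2.85 CPM in E14.5. Thbs2, thrombospondin 2, had 3638, 4865 and 4926 CPM in Shh wounds, against 383, 298, 391 and 375 CPM in E14.5. Neither gene overlapped between groups, and both rose (log2 fold changes 6.48 ± 0.23 (SE), adjusted p = 3.95e-06, and 3.62 ± 0.18 (SE), adjusted p = 1.06e-05). Postn (periostin), Sparc (osteonectin) and Tnc (tenascin-C) rose by 2.15, 2.12 and 2.08 on the log2 scale, while Cyr61, a YAP-responsive matricellular gene, fell by 1.71. Of the matricellular list 9 of 20 rose and 5 fell (median log2 fold change 0.67). Scaled by TMM, 10 rose and 3 fell (median 1.22). Without Shh-9101 the CPM median of this list was 0.40. Lrrc15, a membrane protein of activated fibroblasts, had 645, 1363 and 1153 CPM in Shh wounds, against 9.39, 5.46, 6.74 and 6.66 CPM in E14.5 and 1006, 1219.9 and 1669.6 CPM in WT wounds (log2 fold change 6.98 ± 0.28 (SE), adjusted p = 6.25e-06). Itgbl1, an integrin beta-like secreted protein, rose by 5.71 on the log2 scale. Mmp13, the collagenase, had 8.68, 11.9 and 9.69 CPM in Shh wounds and at most 0.11 CPM in any E14.5 library (log2 fold change 3.36 ± 0.26 (SE), adjusted p = 4.72e-05). Mmp14, which activates the gelatinase Mmp2, and Mmp2 itself rose by 2.38 and 2.05, and Mmp16 fell by 1.83. Of the protease and inhibitor list 13 of 21 rose and 3 fell (median log2 fold change 1.54). By TMM, 14 rose and 2 fell (median 2.13).

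The hyaluronan, elastic fibre and basement membrane lists were mixed. On the CPM scale 35%, 17.6% and 29.6% of their members fell, each below the 42.5% of all genes. The shares that rose were 10%, 41.2% and 18.5%, against 8.08% of all genes, and each median lay above the -0.61 of all genes. Has2, the main hyaluronan synthase of fibroblasts, had 32.9, 16.1 and 14 CPM in Shh wounds, against 102, 99.9, 132 and 72.8 CPM in E14.5, and fell (log2 fold change -2.28 ± 0.31 (SE), adjusted p = 0.000596), while the small proteoglycan Bgn (biglycan) rose by 2.39. Lum (lumican) had no call (1082 ± 209.9 CPM in Shh wounds and 1325 ± 369.9 CPM in E14.5, SD, adjusted p = 0.411). Of the hyaluronan and proteoglycan list 2 of 20 rose and 7 fell (median log2 fold change -0.32). The TMM counts were 3 rises and 4 falls (median 0.30), a sign that changed with the scale, and the CPM median was -0.52 without Shh-9231 and -0.14 without Shh-9233. The microfibril genes Mfap4 and Fbn1 rose by 2.83 and 1.87, and Fbln1 (fibulin 1) fell by 2.37, in a list where 7 of 17 rose and 3 fell (median log2 fold change 0.47). With TMM scaling 9 rose and 1 fell (median 1.11). Hspg2, the basement membrane proteoglycan perlecan, had 3323, 5730.1 and 5381 CPM in Shh wounds, against 969, 1326, 819.9 and 1091 CPM in E14.5, and rose (log2 fold change 2.18 ± 0.26 (SE), adjusted p = 0.000346). Lama1, a laminin chain of embryonic basement membranes, had 0.328, 0 and 0 CPM in Shh wounds, against 26, 38.3, 39 and 17 CPM in E14.5. Its 2 reads in all Shh wounds against 2112 in E14.5 gave a 270-fold lower level, with a counting interval of 74.6 to 2230. Fras1, Frem1 and Frem2, partners in the complex that anchors fetal epidermis, fell (log2 fold changes -3.29, -3.39 and -3.73). Fras1 and Frem2 were higher in E14.5 epidermis (745 to 818 and 428 to 510 CPM) than in E14.5 dermis (65.3 to 172 and 43.3 to 132 CPM). Frem1 was lower there (102 to 132 CPM, against 177 to 428 CPM in E14.5 dermis). What epidermal RNA adds to these dermal values was not tested. For the basement membrane list as a whole, 5 of 27 rose and 8 fell (median log2 fold change -0.06). TMM scaling gave 15 rises and 5 falls (median 0.58), again with a change of sign, and the CPM median ranged over -0.09 to 0.19 when 1 library was left out.

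Fibroblast identity genes split between general and lineage markers. Pdgfra, the receptor carried by most dermal fibroblasts, had 467, 464 and 424 CPM in Shh wounds, against 543, 601, 585 and 384 CPM in E14.5, and did not pass (adjusted p = 0.364). Crabp1, a retinoic acid-binding protein of papillary fibroblasts and papilla, had 123, 243 and 260.1 CPM in Shh wounds, against 1111, 1365, 1243 and 753 CPM in E14.5, and fell (log2 fold change -2.46 ± 0.30 (SE), adjusted p = 0.000379). Dlk1, an imprinted marker of reticular and fat-forming precursors, had 8.19, 3.62 and 0 CPM in Shh wounds, against 1209.9, 893, 1052 and 1800.2 CPM in E14.5 (log2 fold change -8.42 ± 0.65 (SE), adjusted p = 5.01e-05). S100a4 and Ly6a (Sca1), markers of postnatal lower dermis and wound fibroblasts, rose by 3.48 and 3.03. Of the fibroblast lineage list 6 of 19 rose and 6 fell (median log2 fold change 0.21). After TMM scaling 9 rose and 3 fell (median 0.85). The CPM median was -0.0029 without Shh-9231, 0.11 without E-4 and 0.049 without E-7. Of the myofibroblast list 4 of 16 rose and 6 fell (median log2 fold change -0.52). On the TMM scale 5 rose and 4 fell (median 0.10), so the sign of its median changed with the scale, and the CPM median was -0.28 without Shh-9233. Acta2, smooth muscle actin, had 35.4, 54.2 and 52.3 CPM in Shh wounds, against 146, 77.6, 126 and 182 CPM in E14.5, a fall that TMM scaling did not keep (log2 fold changes -1.43 and -0.79, adjusted p = 0.00402 and 0.0887). The E14.5 libraries ranked the same for Acta2 as for the summed skeletal muscle markers given further on (1107, 436, 908 and 2307 CPM). The part of skeletal muscle in the Acta2 fall was not tested. Tagln (SM22), the actin-binding protein whose promoter marks wound myofibroblasts, had 61.3, 69.3 and 74.7 CPM in Shh wounds, against 44.1, 23.5, 34.8 and 48.9 CPM in E14.5, and rose (log2 fold change 0.89 ± 0.25 (SE), adjusted p = 0.0179). Mylk, myosin light chain kinase, rose by 3.03, and Des (desmin), which skeletal muscle also expresses, fell by 3.10.

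More transcription factors of embryonic dermis fell than rose. Twist2, a dermal basic helix-loop-helix factor, averaged 140.2 ± 28.5 CPM in Shh wounds and 359.7 ± 91.6 CPM in E14.5 (log2 fold changes -1.34 and -0.69 with TMM, where it had no call). Tbx15, which patterns dorsal skin, had 68.5, 70.3 and 60.4 CPM in Shh wounds, against 220.4, 184, 207 and 162 CPM in E14.5 (log2 fold change -1.52 ± 0.15 (SE), adjusted p = 0.00012), and Foxp2 fell by 2.86. Creb3l1, a factor that activates type I collagen genes in bone, rose with 193, 328 and 395 CPM in Shh wounds, against 57.8, 60.4, 57.3 and 55.8 CPM in E14.5 (log2 fold change 2.32 ± 0.23 (SE), adjusted p = 0.000135). Of this list 3 of 37 rose and 19 fell (median log2 fold change -0.79). Under TMM scaling 6 rose and 13 fell (median -0.36), where 42.5% of all genes fell on the CPM scale and 23.7% with TMM, and the CPM median was -0.83 with members at 0 reads in a group set at a bound of 3 reads over the group. In the Hox clusters, which set position along the body, 0 of 31 rose and 13 fell (median log2 fold change -0.84). Scaled by TMM, 1 rose and 5 fell (median -0.41). The share of Hox genes that fell was near that of all genes on the CPM scale, and 8 fell without Shh-9101 or without E-4. Hoxa9 and Hoxc4 fell (log2 fold changes -2.44 and -1.90). Which body site each skin sample came from was not compared.

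Targets of Wnt signalling, which starts placode formation, did not move together. Sp5, a direct Wnt target, had 0.328, 0.125 and 0 CPM in Shh wounds, against 31.4, 39.4, 31 and 17.4 CPM in E14.5, a 179-fold lower level on 3 reads (counting interval 61.3 to 871). Lef1, a Wnt effector of condensates, had 7.05, 4.62 and 16.1 CPM in Shh wounds, against 57.5, 92.5, 65.3 and 29 CPM in E14.5, and fell (log2 fold change -2.65 ± 0.47 (SE), adjusted p = 0.00205). Axin2, the feedback target most used as a Wnt readout, differed from these, with 144, 159.9 and 173 CPM in Shh wounds, against 111, 166, 123 and 73.6 CPM in E14.5, overlapping groups and no call on the CPM scale (log2 fold change 0.48 ± 0.25 (SE), adjusted p = 0.143), but a call with TMM (1.12, adjusted p = 0.00734). The Wnt inhibitor Sfrp1 fell by 3.74, while Dkk3, of uncertain role in Wnt signalling, and the receptor Lgr5 rose by 3.47 and 2.37. Across the Wnt list 4 of 36 rose and 18 fell (median log2 fold change -0.93). By TMM, 9 rose and 10 fell (median -0.34), where 42.5% of all genes fell on the CPM scale and 23.7% with TMM. Without Shh-9233, 7 rose and 17 fell (CPM median -0.56).

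Id genes, the targets of BMPs, fell, and Tgfb1 rose. Id1, a direct BMP target, had 17.7, 11.9 and 6.63 CPM in Shh wounds, against 193, 198, 191 and 157 CPM in E14.5 (log2 fold change -3.92 ± 0.28 (SE), adjusted p = 3.73e-05), and Id3 fell by 2.10. Tgfb1, a driver of fibrosis, had 120.1, 82.6 and 82.6 CPM in Shh wounds, against 35.8, 44, 34.2 and 31.9 CPM in E14.5 (log2 fold change 1.35 ± 0.19 (SE), adjusted p = 0.00071), and the activin subunit Inhbb rose by 1.55. Of the list 6 of 27 rose and 11 fell (median log2 fold change -0.65). The 40.7% that fell was near the 42.5% of all genes, and the median was near that of all genes, -0.61. The TMM counts were 8 rises and 5 falls (median -0.02), where 15.1% of all genes rose and 23.7% fell. Leaving out Shh-9231 gave 3 rises and 8 falls, and leaving out E-7 gave 4 and 7. The FGF feedback genes Dusp6 and Spry2 fell, Dusp6 with 48.3, 29.4 and 11.7 CPM in Shh wounds, against 229, 217, 233 and 162 CPM in E14.5 (log2 fold change -2.97 ± 0.40 (SE), adjusted p = 0.00059), and Spry2 by 2.94 on the log2 scale. Fgfr4, a receptor, rose by 2.31. Of the FGF list 2 of 19 rose and 11 fell (median log2 fold change -1.36). With TMM scaling 3 rose and 8 fell (median -0.97). On the CPM scale 57.9% of this list fell, against 42.5% of all genes. Hes1, the main Notch target, had 90.9, 49.5 and 15.3 CPM in Shh wounds, against 515, 378, 479 and 367 CPM in E14.5 (log2 fold change -3.35 ± 0.50 (SE), adjusted p = 0.000917), and of the Notch list 0 of 16 rose and 5 fell (median log2 fold change -0.58). TMM scaling gave 4 rises and 4 falls (median -0.05). The 31.2% of Notch genes that fell on the CPM scale was below the 42.5% of all genes. Their CPM median was near that of all genes, -0.61.

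All genes listed for DNA replication and mitosis were lower in Shh wound dermis. Of the replication list 0 of 28 rose and 28 fell (median log2 fold change -3.12). After TMM scaling 0 rose and 27 fell (median -2.51), and of the mitosis list 0 of 28 rose and 28 fell (median log2 fold change -3.17). On the TMM scale 0 rose and 28 fell (median -2.54). Mcm5, a subunit of the replicative helicase, had 18, 18.6 and 23.7 CPM in Shh wounds, against 202, 213, 218 and 221 CPM in E14.5 and 15.4, 11.2 and 34.8 CPM in WT wounds. Cdk1, the kinase that drives mitosis, had 11.8, 14.9 and 9.95 CPM in Shh wounds, against 179, 153, 197 and 159.5 CPM in E14.5 and 13.2, 13.1 and 32 CPM in WT wounds. Each E14.5 library was several times any wound library for both genes (log2 fold changes -3.35 ± 0.14 (SE), adjusted p = 6.35e-06, and -3.72 ± 0.17 (SE), adjusted p = 8.65e-06). Mcm2, of the same helicase, and Rrm2, a subunit of ribonucleotide reductase, fell (log2 fold changes -2.71 and -3.28), as did the cyclins Ccna2 and Ccnb1 (-4.08 and -4.75). Mki67, the proliferation antigen Ki-67, still had 189, 104 and 72.7 CPM in Shh wounds, against 499, 598, 474 and 385 CPM in E14.5 (log2 fold change -2.09 ± 0.30 (SE), adjusted p = 0.000834). Top2a, the topoisomerase of dividing cells, fell by 2.80 on the log2 scale. Fewer dividing cells and less of these RNAs per cell cannot be told apart in bulk tissue, here or for any other group of genes. Ccnd1, the G1 cyclin, fell by 2.49 on the log2 scale. A list of CDK inhibitors and senescence-associated genes also held the D cyclins Ccnd1 and Ccnd2. Of its genes 2 of 17 rose and 11 fell (median log2 fold change -0.74). The share that fell was 64.7%, against 42.5% of all genes, and 3 of the 11 falls were kept with TMM scaling. Under TMM scaling 3 rose and 3 fell (median -0.11). The neighbouring genes Cdkn2a and Cdkn2b, which hold cells in G1, rose, with 3.61, 3.62 and 13 CPM for Cdkn2a in Shh wounds, against 0.213, 0.221, 0 and 0.114 CPM in E14.5 (log2 fold changes 2.56 ± 0.41 (SE), adjusted p = 0.00135, and 2.70 ± 0.41 (SE), adjusted p = 0.00105 for Cdkn2b), and Cdkn1c, which is imprinted, fell by 5.24.

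Mcm5 and Cdk1 are shown with their promoters because they stand for both lists and carry the short motifs known from cell-cycle genes (300 bases from RefSeq, 250 before to 50 after the gene start, GRCm38.p6, given 5′ to 3′ on the gene's strand). Capitals mark the E2F letters TTTCGCGC or TTTGGCGC in Mcm5 (chr8:75109259-75109558, plus strand), and TTTGAA, the core of the cell-cycle genes homology region, in Cdk1 (chr10:69352863-69353162, minus strand).

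Mcm5: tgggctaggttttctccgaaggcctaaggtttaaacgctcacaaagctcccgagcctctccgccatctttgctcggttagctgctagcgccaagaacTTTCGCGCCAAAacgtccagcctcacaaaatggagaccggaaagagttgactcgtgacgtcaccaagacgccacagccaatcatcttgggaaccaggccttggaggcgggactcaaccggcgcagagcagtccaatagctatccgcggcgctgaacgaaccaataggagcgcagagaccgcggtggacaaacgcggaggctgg
Cdk1: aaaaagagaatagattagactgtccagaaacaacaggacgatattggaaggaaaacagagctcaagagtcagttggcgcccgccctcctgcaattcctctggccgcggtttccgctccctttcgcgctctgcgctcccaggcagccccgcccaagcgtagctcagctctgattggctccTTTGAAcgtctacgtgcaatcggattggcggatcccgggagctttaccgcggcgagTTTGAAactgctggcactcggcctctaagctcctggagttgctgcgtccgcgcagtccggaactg

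Read on both strands, the E2F letters were in 10 of the 24 replication genes whose promoter was matched by symbol or gene ID, and in 0.929% of all 27025 genes in that table. TTTGAA was in 17 of 24 mitosis genes and 20.2% of all genes. Such matches describe the letters of these windows and show nothing of binding.

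Imprinted growth genes fell, with 1 exception in the list. Igf2, the fetal growth factor, had 16.9, 10.5 and 13.5 CPM in Shh wounds, against 2965, 2535, 2969 and 3404 CPM in E14.5 and 23.2, 8.26 and 36.9 CPM in WT wounds. H19, the noncoding RNA of the opposite allele beside Igf2, had 335, 272 and 475 CPM in Shh wounds, against 7458, 5872, 6692 and 8362 CPM in E14.5 and 569.6, 253 and 1964 CPM in WT wounds. No wound library reached the E14.5 range of either gene (log2 fold changes -7.68 ± 0.18 (SE), adjusted p = 8.69e-07, and -4.32 ± 0.24 (SE), adjusted p = 1.49e-05), and they lie close together at chr7:149836673-149852721 and chr7:149761434-149764048 (NCBIM37). Peg10, a retrotransposon-derived gene of placenta, and Mest fell (log2 fold changes -5.55 and -5.36). Peg3, a zinc finger gene, and Igf2r, the receptor that clears Igf2, fell as well (-3.28 and -1.91). Meg3, a noncoding RNA of the Dlk1 domain, was the exception, with 348, 898 and 727 CPM in Shh wounds, against 676, 844, 621 and 977 CPM in E14.5 and 108, 486 and 56.8 CPM in WT wounds (log2 fold change -0.33 ± 0.32 (SE), adjusted p = 0.423, and 0.32 with TMM), while Dlk1 fell by 8.42. Of the imprinted list 0 of 26 rose and 25 fell (median log2 fold change -3.12). Scaled by TMM, 0 rose and 22 fell (median -2.53). Igf2bp1, an oncofetal RNA-binding protein, had 2.13, 4.5 and 4.08 CPM in Shh wounds, against 157, 179.6, 156 and 144 CPM in E14.5 (log2 fold change -5.17 ± 0.22 (SE), adjusted p = 7.36e-06), and its relative Igf2bp3 fell by 4.35. Lin28b, which blocks the maturation of let-7 microRNAs in the embryo, had 0 reads in all Shh wounds and 326 reads in E14.5, so it was at least 27.8-fold lower on a floor of 3 reads over the group. Hmga2, a chromatin protein and let-7 target, had 3 reads in Shh wounds and 1712 in E14.5, a 146-fold lower level (counting interval 49.8 to 707). Of the oncofetal and progenitor list 0 of 20 rose and 17 fell (median log2 fold change -1.84). By TMM, 1 rose and 12 fell (median -1.26).

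**Figure D4:**
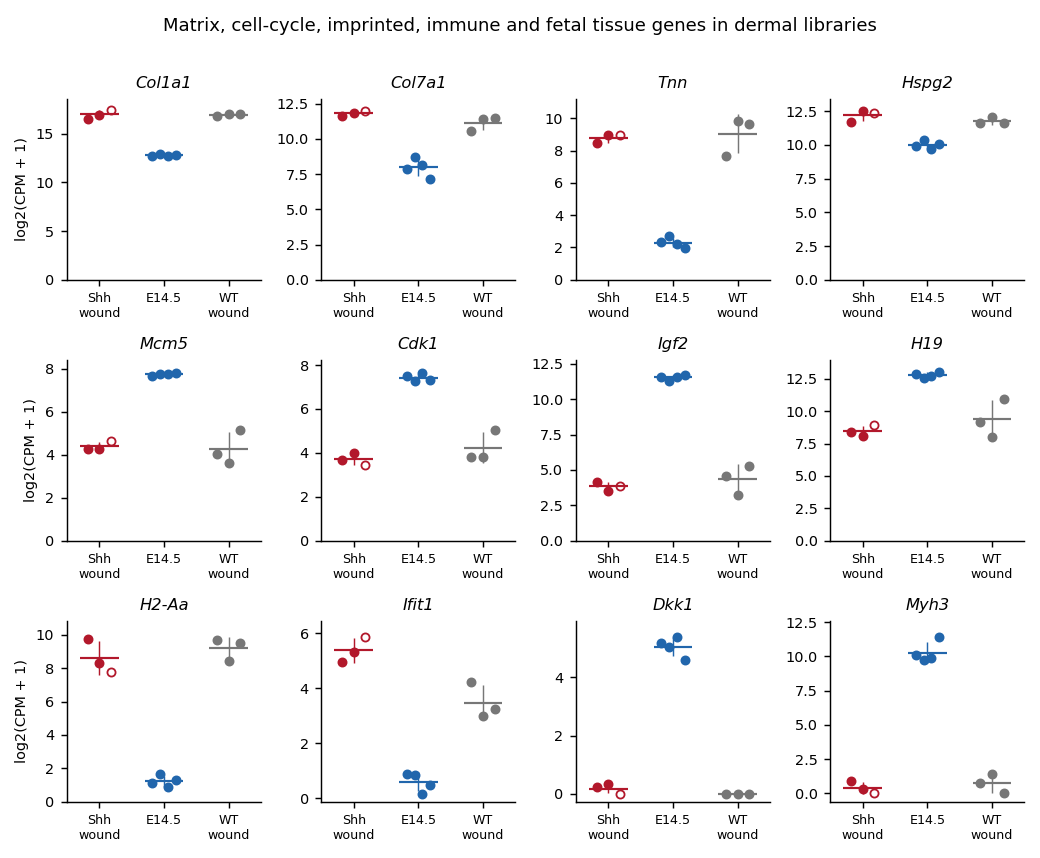
Values of 12 genes in each dermal library, as log2(CPM + 1) on the y axis, with Shh wounds left (red, n = 3; the open point is Shh-9233), E14.5 in the middle (blue, n = 4) and WT wounds right (grey, n = 3); horizontal bars are means and vertical bars 1 SD. Matrix genes (Col1a1, Col7a1, Tnn, Hspg2) and immune genes (H2-Aa, Ifit1) are high in both wound groups, and the cell-cycle, imprinted and muscle genes and Dkk1 are high in E14.5 dermis, with no overlap between Shh wounds and E14.5 for any of the 12.

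MHC class II genes headed the rises ranked by size. H2-Aa, a chain of the MHC class II molecule that displays peptides to helper T cells, had 874, 321 and 217 CPM in Shh wounds, against 1.17, 2.15, 0.804 and 1.42 CPM in E14.5 and 818, 349 and 722 CPM in WT wounds. Its partner genes H2-Ab1 and H2-Eb1 and the invariant chain Cd74 were likewise near background in the embryo, with means of 367, 199 and 800.2 CPM in Shh wounds, against 1.43, 0.657 and 5.4 CPM in E14.5. No library overlapped, and library Shh-9101 was highest for all 4 (log2 fold changes 7.40 ± 0.45 (SE), adjusted p = 2.18e-05, 7.18 for H2-Ab1, 6.83 for H2-Eb1 and 6.86 for Cd74). Ciita, the switch of class II genes, and Nlrc5, that of class I genes, rose by 3.31 and 4.81, and the class I gene H2-D1 by 3.57. Of the MHC list 18 of 23 rose and 0 fell (median log2 fold change 3.01). The TMM counts were 20 rises and 0 falls (median 3.57). H2 genes have near-identical relatives, so that the split of reads between them is uncertain.

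Interferon-induced genes rose almost without exception. Isg15, a ubiquitin-like modifier induced by interferon, had 31, 28.9 and 56.9 CPM in Shh wounds, against 1.07, 0.497, 0.99 and 0.797 CPM in E14.5 and 31.1, 5.06 and 6.39 CPM in WT wounds. Ifit1, which binds foreign RNA, had 29.8, 39 and 56.9 CPM in Shh wounds, against 0.854, 0.828, 0.124 and 0.399 CPM in E14.5 and 17.5, 6.93 and 8.53 CPM in WT wounds. Both were near background in the embryo and separated from it in every library (log2 fold changes 4.38 ± 0.36 (SE), adjusted p = 6.07e-05, and 4.77 ± 0.37 (SE), adjusted p = 4.9e-05). Rnf213, a large ubiquitin ligase, and Irf7, the transcription factor of the interferon response, rose by 3.89 and 4.47, and Oasl2, of the oligoadenylate synthetase family, by 5.28. Of the interferon list 28 of 31 rose and 0 fell (median log2 fold change 3.11). With TMM scaling 30 rose and 0 fell (median 3.61).

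Promoters of Ifit1 (chr19:34640639-34640938, plus strand) and Isg15 (chr4:156200769-156201068, minus strand) are shown with the letters of the interferon-stimulated response element, GAAANNGAA on either strand, in capitals, and those of H2-Aa (chr17:34287774-34288073, minus strand) and H2-Eb1 (chr17:34305617-34305916, plus strand) with CCAAT on either strand in capitals (RefSeq, GRCm38.p6, windows as above).

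Ifit1: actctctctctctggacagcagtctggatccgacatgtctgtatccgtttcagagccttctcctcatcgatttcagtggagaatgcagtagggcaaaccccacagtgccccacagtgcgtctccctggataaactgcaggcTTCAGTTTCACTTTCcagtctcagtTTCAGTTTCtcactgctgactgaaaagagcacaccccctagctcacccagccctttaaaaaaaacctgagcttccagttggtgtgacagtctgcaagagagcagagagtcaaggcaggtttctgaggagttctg
Isg15: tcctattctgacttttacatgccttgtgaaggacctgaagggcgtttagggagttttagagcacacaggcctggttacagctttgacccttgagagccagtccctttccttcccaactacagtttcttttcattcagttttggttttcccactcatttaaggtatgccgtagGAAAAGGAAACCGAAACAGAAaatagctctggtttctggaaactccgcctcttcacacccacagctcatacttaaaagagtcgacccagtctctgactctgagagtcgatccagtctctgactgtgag
H2-Aa: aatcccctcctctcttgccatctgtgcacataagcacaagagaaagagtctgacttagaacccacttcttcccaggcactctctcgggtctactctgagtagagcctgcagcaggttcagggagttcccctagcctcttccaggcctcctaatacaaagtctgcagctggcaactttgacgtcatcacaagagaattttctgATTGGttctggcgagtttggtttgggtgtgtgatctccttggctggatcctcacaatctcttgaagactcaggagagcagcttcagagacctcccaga
H2-Eb1: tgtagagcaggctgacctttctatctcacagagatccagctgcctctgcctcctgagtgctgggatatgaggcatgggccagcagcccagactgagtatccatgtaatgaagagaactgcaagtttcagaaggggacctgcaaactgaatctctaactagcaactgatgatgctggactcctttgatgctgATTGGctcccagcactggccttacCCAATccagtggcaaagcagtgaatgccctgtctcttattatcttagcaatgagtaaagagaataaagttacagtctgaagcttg

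GAAANNGAA was in 15 of the 24 interferon genes with a promoter in the table, against 9.78% of all genes, and CCAAT in 10 of 15 MHC genes, against 41.1%. In Ifit1 the first match began 109 bases before the gene start and in Isg15 it began 78 bases before. Of the other letters searched on both strands, TAGCAAC, as in the X box, was in 1 of 15 MHC genes (4.28% of all), the GLI letters GACCACCCA in 0 of 17 Hedgehog genes (0.289%), CAGCTG in 10 of 27 muscle genes (18.3%) and TGACTCA, for AP-1, in 5 of 13 protease genes (5.95%).

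Macrophage and mast cell genes differed marker by marker. Emr1 (F4/80), which defines macrophages, had 158, 80 and 62 CPM in Shh wounds, against 26.6, 21.3, 26.7 and 25.2 CPM in E14.5 (log2 fold change 1.85 ± 0.30 (SE), adjusted p = 0.00129). Csf1r, the receptor on which they depend, rose by 1.28. Gpnmb, a glycoprotein of lipid-laden and tissue-repair macrophages, and the lysosomal protease Ctss rose by 4.51 and 3.74. Mrc1, the mannose receptor of resident macrophages, had 185, 116 and 77.3 CPM in Shh wounds, against 193, 133, 168 and 181 CPM in E14.5 and no call, and F13a1, another resident marker, was lower with a call that TMM did not keep (log2 fold changes -1.67 and -1.03). The summed level of Emr1, Csf1r, Cd68 and Mrc1 was 610.4, 353 and 374 CPM in Shh wounds, against 292, 229, 263 and 299.8 CPM in E14.5. The range in E14.5 lay wholly below that in Shh wounds, and the part of these cells in the rises of MHC and interferon genes was not tested. Of the macrophage list 21 of 33 rose and 3 fell (median log2 fold change 1.44). TMM scaling gave 24 rises and 0 falls (median 2.01). Mcpt4, a protease of connective tissue mast cells, had 255, 124 and 82.4 CPM in Shh wounds, against 0.694, 1.21, 1.55 and 0.911 CPM in E14.5 (log2 fold change 6.07 ± 0.40 (SE), adjusted p = 2.93e-05). The mast cell marker Cpa3 did the reverse, with 245, 66.8 and 32.4 CPM in Shh wounds, against 224, 190.4, 374 and 269 CPM in E14.5, overlapping groups and a fall lost with TMM (adjusted p = 0.0454 and 0.184). Cd4 rose by 2.87, and Cd3e, of the T cell receptor complex, had 4.1, 2.12 and 0 CPM in Shh wounds and 0 reads in all E14.5 libraries, at least 54.8-fold higher over the group, with a call that TMM scaling lost (adjusted p = 0.053). Of the T cell, NK cell and mast cell list 7 of 25 rose and 1 fell (median log2 fold change 0.56). After TMM scaling 7 rose and 0 fell (median 1.17). On the CPM scale 15 of them rose and 0 fell without library Shh-9233 (median 1.09), 6 rose and 3 fell without Shh-9101 (median 0.018), and 5 or 6 rose and 0 fell without any other library.

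More cytokine genes were called without library Shh-9233. Ccl8, a monocyte chemokine, had 36.7, 13.1 and 14.3 CPM in Shh wounds and 0 reads in E14.5, at least 503-fold higher over the group. Il1b, the inflammatory cytokine, had 153, 28.5 and 29.8 CPM in Shh wounds, against 1.17, 1.16, 1.73 and 1.08 CPM in E14.5 (log2 fold change 4.52 ± 0.58 (SE), adjusted p = 0.000448), with Shh-9101 far above the other wounds. Cxcl14, a chemokine of embryonic skin, fell with 2.46, 2.87 and 4.59 CPM in Shh wounds, against 250.4, 308, 237 and 159 CPM in E14.5 (log2 fold change -5.79 ± 0.26 (SE), adjusted p = 8e-06). Of the cytokine and neutrophil list 9 of 34 rose and 3 fell (median log2 fold change 0.27). On the TMM scale 9 rose and 2 fell (median 0.71). Without Shh-9233, 18 of them rose on the CPM scale (median 0.96), and the median was -0.23 without Shh-9101 and 0.15 without Shh-9231. Of the complement and coagulation list 11 of 25 rose and 4 fell (median log2 fold change 0.27). Under TMM scaling 12 rose and 2 fell (median 0.85), with C1ra, a protease of the classical pathway, higher by 4.55 and its inhibitor Serping1 by 2.13. The CPM median of that list was 0.15 without Shh-9101 and 0.53 without Shh-9231.

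Muscle and globin genes made up 9 of the 12 falls named by size. Myh3, the embryonic myosin heavy chain, had 0.819, 0.25 and 0 CPM in Shh wounds, against 1072, 859, 919 and 2734 CPM in E14.5. Ttn, the giant sarcomere protein titin, had 37, 11.6 and 0 CPM in Shh wounds, against 5221, 5029.8, 4531 and 19351 CPM in E14.5, with library E-7 far above the others. Actc1, the fetal muscle actin, had 0 reads in all Shh wounds and 37865 in E14.5, at least 3220-fold lower, and Acta1 (skeletal actin), Actn2 (sarcomeric actinin) and Myh8 (perinatal myosin) fell (log2 fold changes -8.17, -7.78 and -7.47). Myog, the myogenic factor, had 1 read in Shh wounds and 8296 in E14.5, a 2120-fold lower level (counting interval 380 to 83700). Of the skeletal muscle list 0 of 36 rose and 32 fell (median log2 fold change -5.34). Scaled by TMM, 0 rose and 32 fell (median -4.95). The CPM median was -5.44 with members at 0 reads in a group set at their bound. The summed muscle markers Myod1, Myog, Ckm, Mylpf and Acta1 were 5.24, 2 and 0 CPM in Shh wounds, against 1107, 436, 908 and 2307 CPM in E14.5. Igf2 and H19 are also expressed in fetal muscle, and the part of muscle in their falls was not tested. Agtr2, the angiotensin receptor of fetal mesenchyme, had 2 reads in Shh wounds and 48939 in E14.5, a 6250-fold lower level (counting interval 1730 to 51600), and it was lowest in E-4 among the embryos.

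Globin genes marked blood in the embryo. Hbb-b1, adult beta globin, had 43.4, 16.5 and 0 CPM in Shh wounds, against 2884, 2774, 8297 and 3929 CPM in E14.5, and Hbb-y, the embryonic beta-like globin, 0 reads in Shh wounds and 39247 in E14.5, at least 3340-fold lower. Hbb-b2, a near copy of Hbb-b1 whose reads cannot be fully separated from it, fell by 9.13. Of the globin and erythroid list 1 of 18 rose and 14 fell (median log2 fold change -2.88). By TMM, 1 rose and 13 fell (median -2.50). With members at 0 reads set at their bound the CPM median was -3.02. Cartilage RNA came mainly from library E-4, since Col2a1, the collagen of cartilage, had 0.328, 0.125 and 0 CPM in Shh wounds, against 3.25, 939, 3.03 and 36.5 CPM in E14.5, and did not pass (adjusted p = 0.0527). Adipoq, the fat cell hormone adiponectin, had 0 reads in Shh wounds and 0.213, 0, 0 and 39.7 CPM in E14.5, only E-7 being above 1 CPM, with no call (adjusted p = 0.362). Of the cartilage and bone list 2 of 19 rose and 7 fell (median log2 fold change -1.53). The TMM counts were 2 rises and 5 falls (median -1.04), and of the adipocyte list 1 of 17 rose and 5 fell (median log2 fold change -0.74). With TMM scaling 2 rose and 3 fell (median -0.27). The adipocyte CPM median was -0.30 without E-7, and 2 members rose without Shh-9233. The 36.8% of cartilage and 29.4% of adipocyte genes that fell on the CPM scale lay below the 42.5% of all genes.

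More nerve and vessel genes fell than rose, where 42.5% of all genes fell on the CPM scale and 23.7% with TMM. Ngfr, a neurotrophin receptor of Schwann cells and embryonic mesenchyme, had 10.3, 6.12 and 10.7 CPM in Shh wounds, against 188, 223, 159 and 177 CPM in E14.5 (log2 fold change -4.25 ± 0.21 (SE), adjusted p = 1.06e-05), and Gap43, of growing axons, fell by 3.34. Mbp, a protein of mature myelin, rose by 0.91 (adjusted p = 0.0435), a call that was lost when any library but Shh-9233 was left out, and of the nerve list 2 of 25 rose and 13 fell (median log2 fold change -1.17). TMM scaling gave 2 rises and 9 falls (median -0.67). Pecam1, shared by all endothelium, had 108, 126 and 82.4 CPM in Shh wounds, against 186, 196, 203 and 181 CPM in E14.5, and its fall was lost with TMM (log2 fold changes -0.87 and -0.23). Cldn5, the tight junction protein of capillaries, fell by 3.17 and Vwf, the clotting factor of larger vessels, rose by 2.48, and both calls held with TMM. Of the blood endothelium and pericyte list 2 of 28 rose and 17 fell (median log2 fold change -0.97). After TMM scaling 4 rose and 10 fell (median -0.34). Prox1, the transcription factor that defines lymphatic endothelium, had 3.28, 2.25 and 5.1 CPM in Shh wounds, against 28.4, 22.5, 23.5 and 27.4 CPM in E14.5 (log2 fold change -2.58 ± 0.29 (SE), adjusted p = 0.000257). The hyaluronan receptor Lyve1 fell by 3.66, and of the lymphatic list 0 of 10 rose and 6 fell (median log2 fold change -1.13). On the TMM scale 0 rose and 3 fell (median -0.50). In the melanocyte list 1 of 12 rose and 1 fell (median log2 fold change -0.27). Under TMM scaling 2 rose and 0 fell (median 0.04), a median whose sign changed with the scale. The rise on the CPM scale was Mlph, a pigment granule transport protein, by 1.87.

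**Figure D5:**
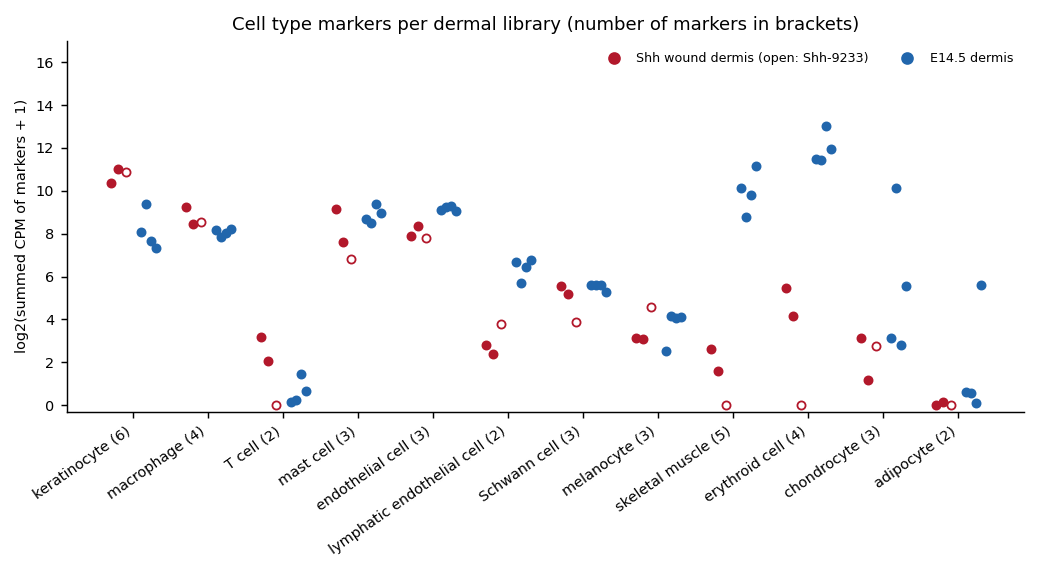
Summed CPM of cell type markers in each dermal library, as log2(summed CPM + 1) on the y axis, with Shh wounds left (red, n = 3; open points are Shh-9233) and E14.5 right (blue, n = 4) within each cell type. Skeletal muscle, erythroid and lymphatic markers are higher in all E14.5 libraries, keratinocyte markers are higher in all Shh wound libraries, chondrocyte markers stand out in E-4 (1116 CPM) and adipocyte markers in E-7 (47.8 CPM).

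Epidermal transcripts were present in every dermal library, and their summed level was higher in the wounds. The summed markers Krt5, Krt14, Krt1, Krt10, Trp63 and Col17a1 were 1301, 2048 and 1896 CPM in Shh wound dermis, against 265, 667, 202 and 162 CPM in E14.5 dermis and 1658, 2686 and 1889 CPM in WT wound dermis, and 80044 to 85991 CPM in Shh wound epidermis and 10182 to 14593 CPM in E14.5 epidermis. The epidermal sums differed in the same direction, so these sums do not give the share of epidermal cells in a dermal library. Trp63, the factor that defines basal epidermis, did not go with the sum: it had 10.7 to 18.9 CPM in Shh wound dermis, against 13.4 to 49.8 CPM in E14.5 dermis, in overlapping ranges. Krt5, the basal keratin, had 219, 500.3 and 345 CPM in Shh wounds, against 66.5, 177, 55.5 and 43 CPM in E14.5 (log2 fold change 2.19 ± 0.47 (SE), adjusted p = 0.00555), and Krt1, the suprabasal keratin, rose by 3.33. Krt6a, the keratin of wound-activated epidermis and of the follicle's companion layer, had 15.4, 36.1 and 23 CPM in Shh wounds, against 0.267, 0.221, 0.433 and 0.171 CPM in E14.5 (log2 fold change 4.27 ± 0.36 (SE), adjusted p = 7.5e-05), and Calm4, a calmodulin-like protein of differentiating epidermis, rose by 5.78. Of the keratinocyte list 15 of 27 rose and 2 fell (median log2 fold change 1.48). Scaled by TMM, 16 rose and 1 fell (median 2.11). Inner root sheath keratins, which only a formed hair follicle makes, were near 0 in E14.5 skin, where follicles are only beginning. Krt71 had 7.05, 11.7 and 86.5 CPM in Shh wounds, against 0.0533, 0, 0.124 and 0 CPM in E14.5 and 660.5, 9.86 and 7.82 CPM in WT wounds, and Krt25 6.23, 7 and 49.2 CPM in Shh wounds, against 0, 0.0552, 0 and 0.0569 CPM in E14.5 and 395, 8.26 and 4.26 CPM in WT wounds. On 3 reads of Krt71 and 2 of Krt25 in E14.5, the levels were 621-fold (counting interval 211 to 3020) and 562-fold (154 to 4660) higher in Shh wounds. Shh-9233 was highest among Shh wounds for both, but WT-9097 exceeded every Shh wound library, and what skin beside the wounds adds was not tested. Of the hair shaft and inner root sheath list 7 of 18 rose and 0 fell (median log2 fold change 0.82). By TMM, 7 rose and 0 fell (median 0.98), and the CPM median was 1.39 with the 5 members at 0 reads in a group set at their bound. Without Shh-9233 the CPM median was 0.39 with 8 rises, and without Shh-9101 it was 1.33 with 7.

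Ribosomal protein and respiratory chain genes had medians below that of all genes. Rpl8, a ribosomal protein, had 465, 306 and 313 CPM in Shh wounds, against 1232, 1207, 1189 and 1398 CPM in E14.5 (log2 fold change -1.82 ± 0.18 (SE), adjusted p = 0.000145), and of the cytosolic ribosomal protein list 0 of 33 rose and 32 fell (median log2 fold change -1.77). The TMM counts were 0 rises and 21 falls (median -1.17). Ribosomal protein genes have many near-identical pseudogenes, so their levels are uncertain. Atp5b, a subunit of mitochondrial ATP synthase, had 322, 295 and 234 CPM in Shh wounds, against 1097, 1047, 1123 and 1256 CPM in E14.5 (log2 fold change -2.001 ± 0.15 (SE), adjusted p = 5.01e-05), and of the nuclear oxidative phosphorylation list 0 of 25 rose and 23 fell (median log2 fold change -1.73). With TMM scaling 0 rose and 18 fell (median -1.15).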

How the data were processed

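Dermis and epidermis were separated and sequenced as stranded, ribosomal RNA-depleted total RNA. Per the labels, the processing used Bowtie, SAMtools and HTSeq (versions not given in the sources used here) on NCBIM37, and the authors deposited CPM (counts per 1000000 reads) per gene. Every library summed to 1000000, and whole reads were recovered from all values at a tolerance of 0.01. The tables' other columns hold the authors' own comparisons and were not used, and 1 column that matched no sample was left out. Each library's tissue was taken from its tissue label.

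Genes with at least 1 read in the 7 libraries were tested with limma 3.58.1 (R 4.3.3) on log2(CPM + 1) with an intensity trend, two-sided, at a Benjamini-Hochberg adjusted p under 0.05. A fold change on this scale understates the change of low genes. Alternatives were pseudocounts of 0.25 and 4, minimum means of 1 and 5 CPM, TMM scaling, no trend, all dermal groups in 1 fit, edgeR 4.0.16 (quasi-likelihood) and DESeq2 1.42.0 on the recovered reads, a test against a log2 difference of 1, and leaving out each library. Genes were named if the study names them, if among the 10 most read of a group, if among the 12 largest called rises or falls (mean of at least 1 CPM, groups not overlapping), or as list members by small p or by role. The members and lists were chosen with earlier results of these data known. Levels at 0 reads were bounded at 3 reads over the group; these bounds and all intervals on reads cover counting error only.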

Additional observations from a re-analysis of the deposited data

Results flagged for a closer look

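In the 4 E14.5 libraries, 15 of the 179 genes examined had 1 library far from the other 3, a gap that chance gives in about 1 of 20 groups of this size. Library E-7 was the distant one for 7 of them. It was high for the muscle genes Ttn (19351 CPM, against 4531 to 5221 in the others), Myh3 (2734, against 859 to 1072) and Actn2 (572, against 165 to 225), and for Adipoq (39.7, against 0 to 0.213). It was low for Tbx18 (68.0, against 98.1 to 102), Ccnd1 (303, against 392 to 397) and Peg3 (2194, against 2437 to 2486). Library E-4 was the distant one for 6. It was high for Col2a1 (939 CPM, against 3.03 to 36.5), S100a4 (8.33, against 4.80 to 5.07), Mlph (3.70, against 1.97 to 2.23) and Mmp13 (0.110, against 0.0533 to 0.0619), and low for Agtr2 (379.9, against 781 to 819) and Thbs2 (298, against 375 to 391). The Mmp13 flag rests on a few reads, since each of the other 3 libraries held 1 read and 1 read was 0.0552 CPM in E-4. Loxl2 was low in E-3 (294 CPM, against 328 to 336), and Il1b was high in E-5 (1.73, against 1.08 to 1.17).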

How the results depend on the processing

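The counts of calls depended on scaling. Against 1594 higher and 8393 lower genes in the reported fit, TMM scaling gave 2984 and 4680, edgeR 3398 and 3707 (3421 and 3848 with no filter on low counts), and DESeq2 3955 and 5095. A test against a log2 difference of 1 called 2524 genes, 447 higher and 2077 lower. Leaving out a library gave 8073 to 11598 calls, 1233 to 2671 higher and 6840 to 8956 lower, with 2671 higher without Shh-9233. Pseudocounts, minimum means, no trend and the fit of all dermal groups kept the 3 counts within 1.5 times. Signs turned for these log2 fold changes, given for TMM, edgeR, unfiltered edgeR and DESeq2 in turn: Dhh 0.31, 0.40, 0.35 and 0.31, Ptch1 0.36, 0.37, 0.32 and 0.28, Sufu 0.14, 0.19, 0.14 and 0.10, Lum 0.38, 0.40, 0.35 and 0.31, Pdgfra 0.44, 0.48, 0.43 and 0.39, Meg3 0.32, 0.48, 0.43 and 0.39, and Mrc1 0.15, 0.24, 0.19 and 0.15. RNase_MRP turned to 0.12, 0.067 and 0.035 with edgeR, unfiltered edgeR and DESeq2, and Gli2 to 0.046 with edgeR. Without a library, Dhh ranged over -0.40 to 0.00093 and Malat1 over -0.050 to 0.38 (both turned without Shh-9231), and Meg3 over -0.61 to 0.075 (turned without Shh-9101). The medians of the Hedgehog, basement membrane, hyaluronan, immediate early, melanocyte and myofibroblast lists changed sign with TMM, edgeR and DESeq2. The cause was not tested. In the collagen, FGF, keratinocyte, cartilage, nerve, melanocyte, erythroid and transcription factor lists, leaving out a library moved a count of calls by over 1.5 times only where that count was 3 or fewer in the reported fit. No paired analysis was possible because the Shh wound and E14.5 libraries share no replicate number. The shallower Shh wound libraries limit what can be said of genes under 1 CPM. In Shh-9233 zeros also occurred above that level, as for Hbb-b1 (43.4 and 16.5 CPM in Shh-9101 and Shh-9231) and Dlk1 (8.19 and 3.62 CPM).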

Other observations

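Noncoding RNA loci took many reads in both tissues. The libraries were of total RNA, so reads at a microRNA locus here are not a measure of the mature microRNA. The 7SK RNA, which restrains transcript elongation, had 11559, 4579.9 and 2801 CPM in Shh wound dermis, against 48058, 37385, 38236 and 39978 CPM in E14.5 dermis, and fell (limma log2 fold change -2.94 ± 0.55 (SE), adjusted p = 0.0027, and -2.29 with TMM scaling). The table lists 7SK under several gene IDs, and the most read was used. The locus mmu-mir-689-2 had 4753, 4846 and 11120.0 CPM in Shh wounds, against 73.7, 104, 87.3 and 108 CPM in E14.5 and 13737, 11766 and 13541 CPM in WT wounds, and rose (6.09 ± 0.31 (SE), adjusted p = 1.06e-05). Mir5102 had 56.4, 35.5 and 53 CPM in Shh wounds, against 0.267, 0.497, 0 and 0.228 CPM in E14.5, and rose as well (5.29 ± 0.33 (SE), adjusted p = 2.59e-05). Mir5105 had 8859.7, 8809 and 13966 CPM in Shh wounds, against 8299.9, 8546, 7137 and 9121 CPM in E14.5, with no call, and 23333, 16195 and 177144 CPM in WT wounds. AY036118 had 13152, 6784 and 11906 CPM in Shh wounds, against 3973, 4435, 2972 and 4767 CPM in E14.5, and rose (1.36 ± 0.34 (SE), adjusted p = 0.0103). RNase_MRP, Malat1 and AC027184.1 had no call (adjusted p = 0.24, 0.615 and 0.0947). Miat, a long noncoding RNA, had 375, 719 and 641 CPM in Shh wounds, against 9.34, 12.3, 6.74 and 23 CPM in E14.5, and rose (5.46 ± 0.39 (SE), adjusted p = 3.69e-05).

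Of the glycolysis and hypoxia genes, 1 of 24 rose and 15 fell (median log2 fold change -1.19). TMM scaling gave 5 rises and 11 falls (median -0.69), where 42.5% of all genes fell on the CPM scale and 23.7% with TMM. Without Shh-9233, 4 rose and 17 fell, and without Shh-9101, 2 rose and 15 fell. Ldha, lactate dehydrogenase A, had 51.3, 34.6 and 20.1 CPM in Shh wounds, against 219, 178, 228 and 224 CPM in E14.5, and fell (limma log2 fold change -2.64 ± 0.28 (SE), adjusted p = 0.000187). Epas1, which encodes the hypoxia-inducible factor HIF-2 alpha, had 116, 149 and 150.5 CPM in Shh wounds, against 46.9, 52.7, 49.9 and 38.4 CPM in E14.5, and rose (1.54 ± 0.16 (SE), adjusted p = 0.000197). Among immediate early and stress genes 2 of 26 rose and 6 fell (median log2 fold change -0.39). After TMM scaling 5 rose and 1 fell (median 0.25), a median whose sign changed with the scale. On the CPM scale it also turned to 0.13 without Shh-9233, with 6 rises and 6 falls, and was -0.92 without Shh-9101, with 2 rises and 12 falls. Without Shh-9231, E-3 or E-5, 2 rose and 3 fell. Fosl2, an AP-1 subunit, had 497, 489 and 417 CPM in Shh wounds, against 122, 115, 133 and 107 CPM in E14.5, and rose (1.96 ± 0.13 (SE), adjusted p = 3.17e-05).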
